A study of Mus musculus with 82 samples.

Results

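MicroRNAs (miRNAs) were compared between mice that drank ethanol and mice that drank only water, in the total homogenate (TH) of the extended amygdala, the unfractionated tissue before synaptic terminals were enriched. The arrays were 20 of the 82 samples of the series, 8 from alcohol mice and 12 from water controls, and the features were the 1111 mouse probe sets of the array, of which 332 measure a passenger strand, written "star". All animals were female C57BL/6J mice, an inbred strain, aged 2 months, with no genetic change. Alcohol mice had continuous access to a bottle of 20% ethanol and a bottle of water for 30 days, and controls had water in both bottles. From each homogenate a share of 10% was kept as TH, and the rest went to synaptoneurosomes (SN), a filtered fraction rich in pinched-off synaptic terminals. Each array held the RNA of 1 mouse. No mouse number links an alcohol mouse to a control, so the groups were compared without pairing. Control 4 had no miRNA array.

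A miRNA is a short RNA that is cut from a hairpin, first in the nucleus by Drosha and Dgcr8 and then in the cytoplasm by Dicer, and loaded onto an Argonaute protein. Bases 2 to 8 of the mature strand, the seed, pair with sites in target messenger RNAs, which are then translated less or degraded. In neurons some miRNAs and much of this machinery are found near synapses, and a set of miRNAs follows neuronal activity.

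The mature sequences below belong to the miRNAs whose differences are described next, with the seed in capitals, so that members with related names or shared hairpins can be told apart. Those with an alcohol mean above the control mean are given first.
miR-346: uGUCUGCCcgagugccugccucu
miR-574-5p: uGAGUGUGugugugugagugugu
miR-574-3p: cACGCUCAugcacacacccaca
miR-744: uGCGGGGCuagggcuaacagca
miR-423-3p: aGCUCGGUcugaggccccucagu
miR-30c-2-star: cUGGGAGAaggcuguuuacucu
miR-5100: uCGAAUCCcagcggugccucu
miR-434-5p: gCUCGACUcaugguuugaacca
miR-411-star: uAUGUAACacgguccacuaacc
miR-381-star: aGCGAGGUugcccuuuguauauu
miR-154: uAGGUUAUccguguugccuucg
miR-410: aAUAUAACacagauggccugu
miR-132-star: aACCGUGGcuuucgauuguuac
miR-9: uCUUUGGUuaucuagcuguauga
miR-301a: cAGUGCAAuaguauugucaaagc
miR-22: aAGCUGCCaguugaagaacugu
miR-181d: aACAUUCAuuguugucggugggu
Sequences and positions are RefSeq's for mouse build GRCm38.p6. No seed was shared among these sequences. Of the first 6, miR-346 lies at chr14:34894624-34894646 on the plus strand and miR-30c-2-star at chr1:23291754-23291775 on the plus strand. Both arms of the miR-574 hairpin are on the plus strand of chromosome 5, at chr5:64970328-64970350 (5p) and chr5:64970364-64970385 (3p). miR-744 at chr11:65734799-65734820 and miR-423-3p at chr11:77078086-77078108 are on the minus strand. Of the others, 5 come from 1 imprinted region of chromosome 12, all on the plus strand: miR-434-5p at chr12:109594528-109594549, miR-411-star at chr12:109710225-109710246, miR-381-star at chr12:109726829-109726851, miR-154 at chr12:109738438-109738459 and miR-410 at chr12:109743764-109743784. miR-132-star at chr11:75173686-75173707, miR-22 at chr11:75463772-75463793, miR-301a at chr11:87113054-87113076 and miR-5100 at chr11:60728698-60728718 lie on the plus strand of chromosome 11. miR-9 has 3 gene copies with this same mature strand, on chromosomes 3, 7 and 13. miR-181d lies at chr8:84178759-84178781 on the minus strand.

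The tissue label was checked first, on log2 intensities. miR-124, the neuronal miRNA that marks the brain, was the brightest of all 1111 probe sets at 13.40 in alcohol mice and 13.41 in controls. All 4 neuron markers had a mean over 4, the level taken here as clear of the array's floor. Of 5 muscle and liver markers, 4 averaged under 1 (miR-1a, miR-133a, miR-122 and miR-208a-3p) and the last, miR-206, averaged 1.21. The summed neuron markers spanned 13.48 to 13.69 in alcohol mice and 13.54 to 13.64 in controls. That sum is mostly miR-124, and of the other 3, miR-9 differed by -0.66 (p = 0.0193), miR-137 by -0.27 (p = 0.130) and miR-128 by -0.04. The summed vessel-wall markers spanned 10.10 to 10.80 in alcohol mice and 10.10 to 10.93 in controls. Summed oligodendrocyte markers ran between 5.57 and 7.36 in alcohol mice and between 5.86 and 7.19 in controls. Of these 4 markers 2 had a mean over 4, miR-219-3p (5.95) and miR-338-5p (4.77). The others, miR-219-5p and miR-338-3p, averaged 0.56 and 1.15 and add little to the sum. Summed blood cell markers ran between 7.61 and 8.22 in alcohol mice and between 7.46 and 8.04 in controls. In bulk tissue, fewer cells of a type and less RNA per cell cannot be told apart.

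Array medians lay between 0.86 and 1.00, and 236 to 261 probe sets per array were over 4. The TH arrays of alcohol mice 1 and 8 stood apart by their deviation. Their probe sets with a mean over 4 lay a median of 0.27 and 0.29 from the median array, against 0.086 to 0.22 on the other 18 arrays. By correlation with the median array they stood apart little. It was 0.978 for both, 0.979 for control 13 and 0.981 for control 10. Named differences that moved by over 1.5 times, or whose p crossed 0.05, without alcohol mice 1 and 8 are given both ways. No arrays were duplicates, since the correlations between TH arrays ran between 0.944 and 0.991. The TH messenger RNA arrays of controls 11 and 12 are titled outliers by the authors; their miRNA arrays are kept here.

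No probe set passed the test. Under limma with Benjamini-Hochberg adjustment over all 1111 probe sets, 0 (0%) had an adjusted p under 0.05, and the smallest adjusted p was 0.220. Leaving out control 13 let 1 probe set pass, miR-3113-star near the floor (adjusted p = 0.0489), and leaving out any other array let 0 pass. At an unadjusted p under 0.05 there were 77 (6.93%), 39 higher (3.51%) and 38 lower (3.42%) in alcohol mice, and 580 of the 1111 differences (52.2%) were above 0. None had alcohol and control values that did not overlap (0 of 1111, 0%). The 252 probe sets with a mean over 4 held 28 of the 77 (11.1% of 252), 13 higher (5.16%) and 15 lower (5.95%), and the 859 at or under 4 held 49 (5.7%). Every miRNA described below therefore differs at most at the unadjusted level, and p-values are unadjusted unless they are called adjusted. Some of the 28 averaged over 4 in their higher group alone. miR-720 averaged 3.48 in alcohol mice and 4.42 in controls, miR-411-star 3.68 and 4.37, and miR-132-star 3.59 and 4.47. miR-574-5p averaged 4.36 in alcohol mice and 3.89 in controls.

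Differences were small where the signal was clear. Over the 252 probe sets with a mean over 4 the median difference was 0.02 on the log2 scale, 142 were above 0 (56.3%), 10 were more than 0.5 from 0 and 0 were more than 2-fold. The 95% interval of the difference lay within 2-fold in either direction for 239 of the 252 (94.8%) and its median half-width was 0.26. Above a mean of 1 the spread between arrays of a group fell with level. The median residual SD was 0.23 for the 605 probe sets with means up to 1, 0.52 for means of 1 to 4, 0.38 for 4 to 6, 0.24 for 6 to 8, 0.22 for 8 to 10 and 0.14 above 10. The number of arrays limits this precision. Of the 859 dimmer probe sets, only miR-1298 differed more than 2-fold, at -1.43 (SE 0.56, limma p = 0.0178, adjusted p = 0.534). It spanned 0.86 to 1.54 (median 1.07) in alcohol mice and 0.35 to 5.65 (median 1.91) in controls, which enclosed all alcohol values, and was chosen after its values were seen.

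**Figure D1:**
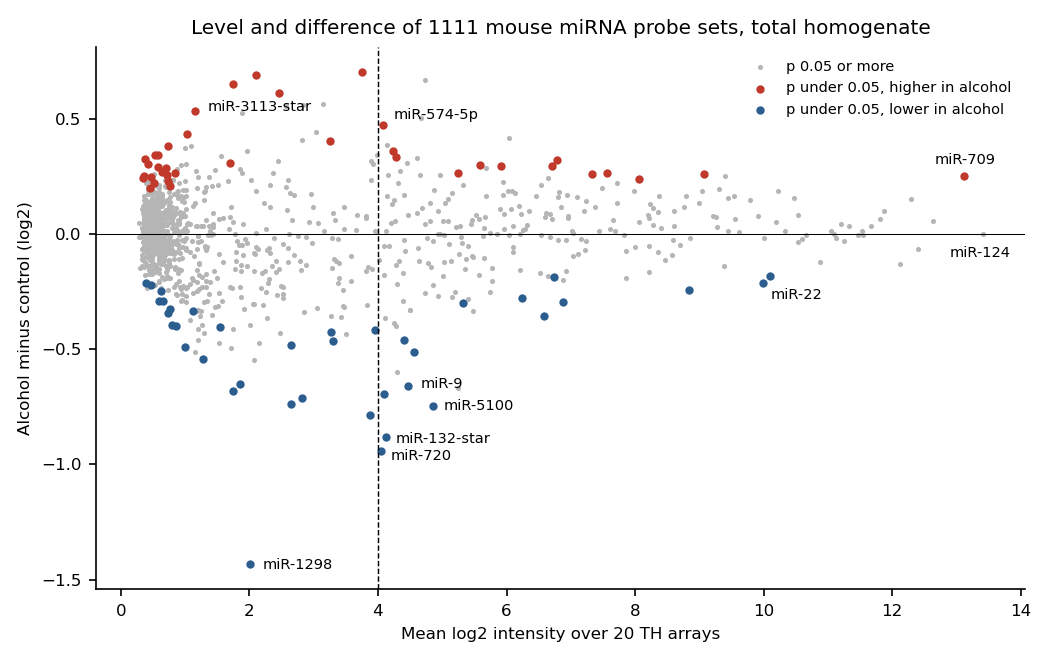
Alcohol minus control difference (log2) against mean log2 intensity over the 20 TH arrays for 1111 mouse miRNA probe sets, with the dashed line at a mean of 4. The 77 probe sets at p under 0.05 are coloured by direction, and above a level of 8 all points lie within 0.26 of 0.

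Among the miRNAs with higher means in alcohol mice, miR-709, the second brightest probe set, had the smallest p. It measured 13.07, 13.31 and 13.40 (lowest, median and highest) in alcohol mice and 12.71, 13.04 and 13.31 in controls. All 8 alcohol mice lay above the control median, and the groups overlapped. The difference was 0.25 (SE 0.079, limma p = 0.00455, adjusted p = 0.512).

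miR-346, a miRNA known from brain, showed the same size of difference at a lower level. Its alcohol values were 7.43, 7.75 and 7.87 (lowest, median, highest), and its control values 7.17, 7.39 and 7.89. Again 8 of 8 alcohol mice exceeded the control median, while the highest single value was a control. The difference was 0.27 (SE 0.089, limma p = 0.00664, adjusted p = 0.512). Its star strand differed by 0.30 (SE 0.25, p = 0.233).

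Both arms of the miR-574 hairpin lay on the same side. miR-574-5p, a GU repeat as its sequence above shows, had 3.88, 4.31 and 5.23 in alcohol mice and 3.50, 3.73 and 4.82 in controls. The highest alcohol value was that of mouse 8, and all 8 were above the control median. The 5p difference was 0.47 (SE 0.18, limma p = 0.0161, adjusted p = 0.512) and became 0.32 (p = 0.0912) without alcohol mice 1 and 8. The 3p arm differed by 0.30 (SE 0.13, p = 0.0250), or 0.24 (p = 0.0781) without those mice.

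miR-485, which is cut from the chromosome 12 region and is known to act in dendritic spines, ran from 7.22 to 7.76 (median 7.46) in alcohol mice and from 6.88 to 7.68 (median 7.14) in controls. All 8 alcohol mice exceeded the control median. The difference was 0.26 (SE 0.096, limma p = 0.0134, adjusted p = 0.512) and 0.19 (p = 0.0802) without alcohol mice 1 and 8. miR-744 spanned 8.99 to 9.54 (median 9.24) in alcohol mice and 8.58 to 9.31 (median 8.99) in controls, a difference of 0.26 (p = 0.0213). miR-423-3p spanned 3.89 to 4.87 (median 4.64) and 3.76 to 4.65 (median 4.13), a difference of 0.33 (p = 0.0216). For these, 7 and 6 of the 8 alcohol mice were above the control median, and neither kept p under 0.05 without alcohol mice 1 and 8 (p = 0.131 and 0.121).

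The other members of the 12 with the smallest p on this side were miR-455 (0.30, p = 0.0230), miR-667 (0.27, p = 0.0250), miR-30c-2-star (0.36, p = 0.0279), miR-1196 (0.32, p = 0.0344) and miR-3102 (0.24, p = 0.0355). miR-455 and miR-30c-2-star moved away from 0 without alcohol mice 1 and 8, at 0.35 and 0.42. The other 3 were then closer to 0, at 0.22 (p = 0.0888), 0.17 (p = 0.228) and 0.17 (p = 0.148). miR-30c, the main strand of this hairpin and of another, differed by -0.02 (SE 0.084) at a level of 10.01. The 13th probe set on this side was miR-1894-5p, at 0.29 (p = 0.0487).

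**Figure D2:**
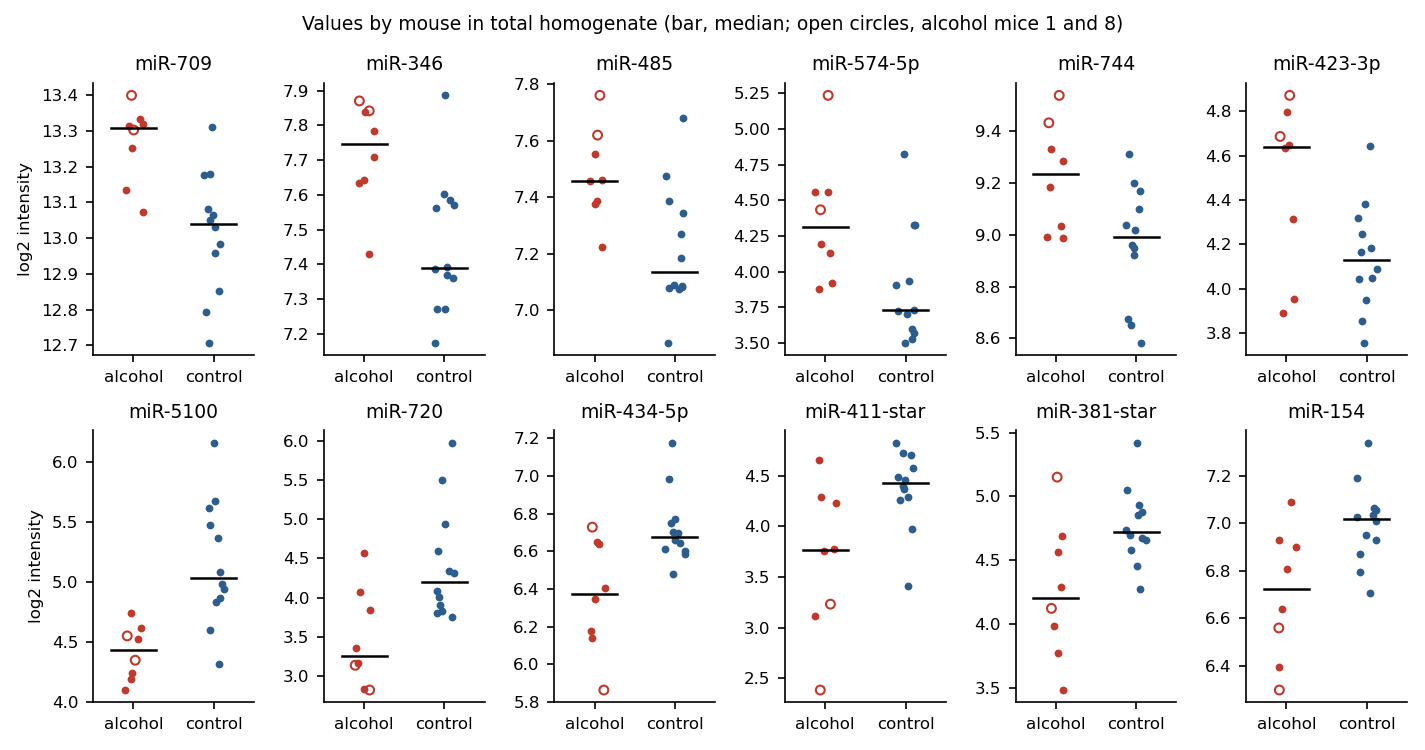
Log2 intensity in each mouse (points), with the group median (bar), for the 6 miRNAs of smallest p with higher means in alcohol mice (top) and the 6 with lower means (bottom). Open circles are alcohol mice 1 and 8, and in every panel the alcohol and control points overlap.

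On the other side, miR-5100 had the smallest p of any probe set with a mean over 4. Its values were 4.10, 4.44 and 4.75 (lowest, median, highest) in alcohol mice and 4.31, 5.03 and 6.16 in controls. No alcohol mouse reached the control median, though control 9, at 4.31, fell within the alcohol range. The difference was -0.74 (SE 0.18, limma p = 0.000564, adjusted p = 0.313), and -0.76 (p = 0.0019) without alcohol mice 1 and 8. The wider group was the controls, with an SD of 0.51 against 0.23 in alcohol mice. Controls 13 and 5 were highest, at 6.16 and 5.67, and the difference without both was not tested. miR-720, a probe set whose sequence is now held to be a piece of a transfer RNA, measured 2.83, 3.26 and 4.57 in alcohol mice and 3.75, 4.20 and 5.97 in controls. Of the 8 alcohol mice 1 was above the control median. Its difference was -0.94 (SE 0.29, limma p = 0.00352, adjusted p = 0.512), or -0.78 (p = 0.0236) without alcohol mice 1 and 8.

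Of the 12 lower probe sets of smallest p, 5 were from the imprinted Dlk1-Dio3 region, which held 40 of the 252 with a mean over 4. miRNAs of this region are transcribed from the maternal chromosome and are abundant in neurons. miR-434-5p had 5.86, 6.38 and 6.73 in alcohol mice and 6.48, 6.68 and 7.18 in controls, a difference of -0.35 (SE 0.11, limma p = 0.00406, adjusted p = 0.512). miR-381-star had 3.48, 4.21 and 5.15 in alcohol mice and 4.27, 4.72 and 5.42 in controls, a difference of -0.51 (SE 0.18, p = 0.00834). In both, 1 of 8 alcohol mice was above the control median, and without alcohol mice 1 and 8 the differences were -0.33 and -0.64.

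miR-411-star spanned 2.38 to 4.66 (median 3.76) in alcohol mice and 3.41 to 4.83 (median 4.43) in controls, a difference of -0.69 (SE 0.23, p = 0.00747). miR-154 spanned 6.30 to 7.09 (median 6.72) and 6.71 to 7.34 (median 7.02), a difference of -0.30 (SE 0.10, p = 0.00867). miR-410 spanned 4.74 to 5.48 (median 5.18) and 5.09 to 5.78 (median 5.41), also a difference of -0.30 (SE 0.11, p = 0.0141). These 3 leaned on the arrays that stood apart: without alcohol mice 1 and 8 the differences were -0.40 (p = 0.0649), -0.20 (p = 0.0631) and -0.20 (p = 0.104).

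Over the whole region differences lay on both sides of 0. Its 56 hairpins, not all of them with a matched probe set, run over chr12:109563692-109743795. Of 101 matched probe sets 40 had a mean over 4. Of those 40, 0 passed, 2 were higher (miR-485 and miR-667) and 6 lower at p under 0.05, 19 were above 0 and 21 below, and the median was -0.004. The 252 probe sets as a whole had a median of 0.02 and 11.1% at p under 0.05, 13 higher (5.16%) and 15 lower (5.95%). The region's 6 lower of 40 were a larger share than that. Of these 6, miR-411-star, miR-154, miR-410 and miR-411 were not at p under 0.05 without alcohol mice 1 and 8. Whether the region differs from the rest was not tested.

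miR-132, a miRNA that follows neuronal activity, and miR-9, which controls neuronal differentiation, each had 1 strand at p under 0.05 and 1 that was not. miR-132-star was 1.48, 3.55 and 4.91 (lowest, median, highest) in alcohol mice and 3.93, 4.46 and 5.07 in controls. The low end was mouse 7, and 2 of 8 alcohol mice were above the control median. The difference was -0.88 (SE 0.31, limma p = 0.00932, adjusted p = 0.512), while miR-132 itself, at a level of 11.54, differed by -0.01 (SE 0.068). miR-9 was 2.77, 4.11 and 5.28 in alcohol mice and 4.13, 4.72 and 5.29 in controls, with mice 1 and 5 below 3. Its difference was -0.66 (SE 0.26, p = 0.0193), or -0.40 (p = 0.126) without alcohol mice 1 and 8, and miR-9-star differed by -0.03 (SE 0.14).

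The 12 also held a bright miRNA and a pair of dimmer ones. miR-22 ran from 9.76 to 10.17 (median 10.03) in alcohol mice and from 9.99 to 10.46 (median 10.17) in controls, with 0 of 8 alcohol mice above the control median and a difference of -0.18 (SE 0.073, p = 0.0216). miR-301a differed by -0.46 (SE 0.17, p = 0.0142) and miR-181d by -0.28 (SE 0.12, p = 0.0323). Without alcohol mice 1 and 8 these 3 were at -0.15 (p = 0.0648), -0.47 (p = 0.0229) and -0.16 (p = 0.205). The other 3 lower probe sets at p under 0.05 were miR-16 (-0.21, p = 0.0349), miR-99a (-0.24, p = 0.0485) and miR-411 (-0.18, p = 0.0493). Without alcohol mice 1 and 8 they were at -0.17 (p = 0.124), -0.09 (p = 0.385) and -0.14 (p = 0.117).

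Near the floor the smallest p of all belonged to miR-3113-star, with values of 1.12 to 1.82 (median 1.41) in alcohol mice and 0.61 to 1.44 (median 0.91) in controls. The difference was 0.53 (SE 0.12, limma p = 0.000198, adjusted p = 0.220), and 8 of 8 alcohol mice were above the control median. Such levels are near those of the muscle and liver markers. miR-1968-star (0.34), miR-5101 (0.33) and miR-758 (0.34) were the next on that side. miR-539-5p (-0.68), miR-222-star (-0.32), miR-5097 (-0.79) and miR-362-5p (-0.41) led the other, with p between 0.0014 and 0.0117. miR-222, the bright partner of miR-222-star at a level of 11.12, differed by -0.02.

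The differences ran with base composition. A G and C content could be given to 213 of the 252 probe sets (84.5%), from the arm measured for 78 and as the mean of the hairpin arms listed for the rest. Among 20 miRNAs with up to 40% G and C the median difference was -0.11 and 4 were above 0. Among 85 between 40 and 50% it was -0.05, with 30 above 0. Among 56 between 50 and 60% it was 0.05, with 39 above 0, and among 52 over 60% it was 0.12, with 41 above 0. Across these 213 miRNAs, which share the same 20 arrays and are not independent, Spearman's rho was 0.485 and Pearson's r 0.386. Within the 40 probe sets of the chromosome 12 region with a mean over 4, rho was 0.597. Of the sequences shown above, miR-744, miR-423-3p and miR-346 are GC-rich and miR-9, miR-410 and miR-301a GC-poor. miR-5100, with 61.9% G and C, went the other way.

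The relation was weaker without alcohol mice 1 and 8, where rho was 0.158 and r 0.131. The count of probe sets at p under 0.05 was then 17 of 252 (6.75%), of which 10 were among the 28. A slope on G and C content was fitted in single arrays, in log2 units for each 10 percentage points. It ran from -0.12 to 0.21 in alcohol mice, with 6 of 8 above 0, and from -0.16 to 0.05 in controls, with 3 of 12 above 0. Alcohol mice 1 and 8 had the highest slopes, 0.18 and 0.21, so leaving out these arrays alone had to weaken the relation. Alcohol mice 3 and 6, at -0.12 and -0.11, and control 8, at -0.16, were kept. With the linear trend on base composition removed from each array, 21 of the 213 were at p under 0.05, against 25 before, and 18 were shared. The smallest adjusted p over the 213 was then 0.0527, that of miR-5100 at -0.81 (SE 0.18). The part of base composition in the differences was not tested beyond this. In SN arrays of the same mice rho was 0.108.

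**Figure D3:**
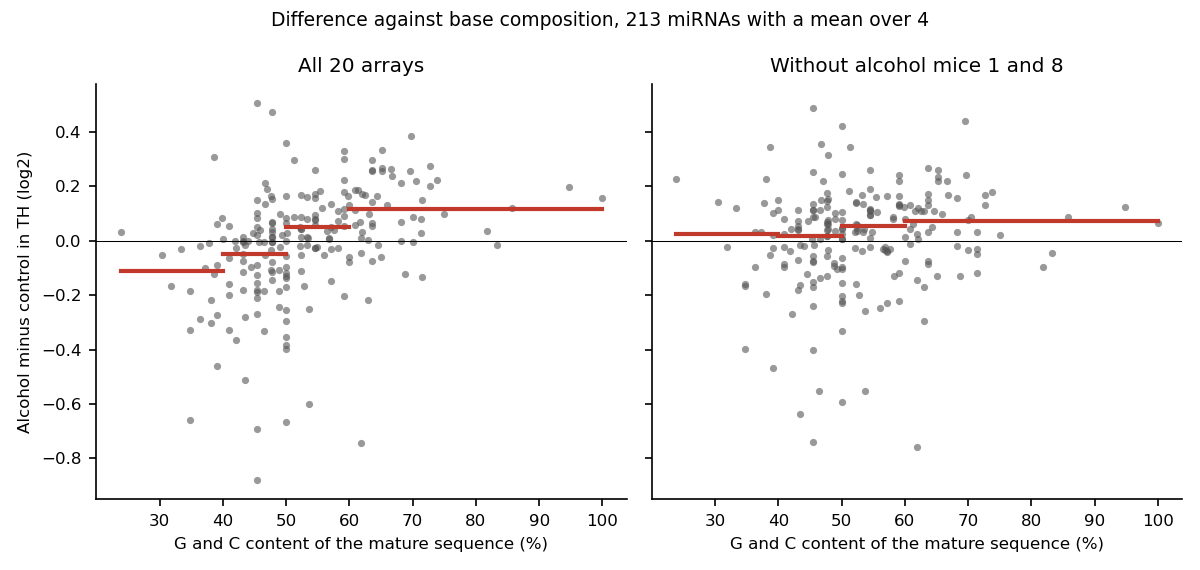
Alcohol minus control difference in TH (log2) against G and C content (%) for the 213 miRNAs with a mean over 4 and a sequence, with all 20 arrays (left) and without alcohol mice 1 and 8 (right). Red lines are medians within 4 ranges of content; on the left they climb from -0.11 to 0.12, and on the right the spread between them is smaller.

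The same mice gave SN arrays, so the named differences could be set beside independent hybridisations. In SN, 0 of 1111 probe sets passed (0%) and 65 (5.85%) were at p under 0.05. Of the 13 probe sets with higher TH means, 4 were above 0 in SN and 9 below, with a median of -0.12. Of the 15 with lower TH means, 7 were above 0 and 8 below, with a median of -0.06, and 1 was at p under 0.05, miR-411 at -0.25. Over all 252 probe sets, 97 were above 0 in SN and the median was -0.04.

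The difference of miR-709 was 0.25 in TH and -0.19 (SE 0.20) in SN. That of miR-5100 was -0.74 in TH and 0.35 (SE 0.20) in SN, and that of miR-574-5p was 0.47 in TH and -0.66 (SE 0.37) in SN. miR-22 had -0.18 in TH and -0.19 in SN. miR-154, miR-410, miR-411-star and miR-132-star were also below 0 in SN, at -0.18, -0.16, -0.27 and -0.06. On the higher side, miR-455, miR-667, miR-574-3p and miR-30c-2-star were also above 0 in SN, at 0.09, 0.003, 0.002 and 0.05. The difference between the fractions, tested within mice, passed for 0 of 1111 probe sets (0%). At an unadjusted p under 0.05 there were 86 (7.74%), among them miR-5100 (limma p = 0.00116). miR-5100 was named for its TH values, which enter this test too, so this p is not separate evidence.

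**Figure D4:**
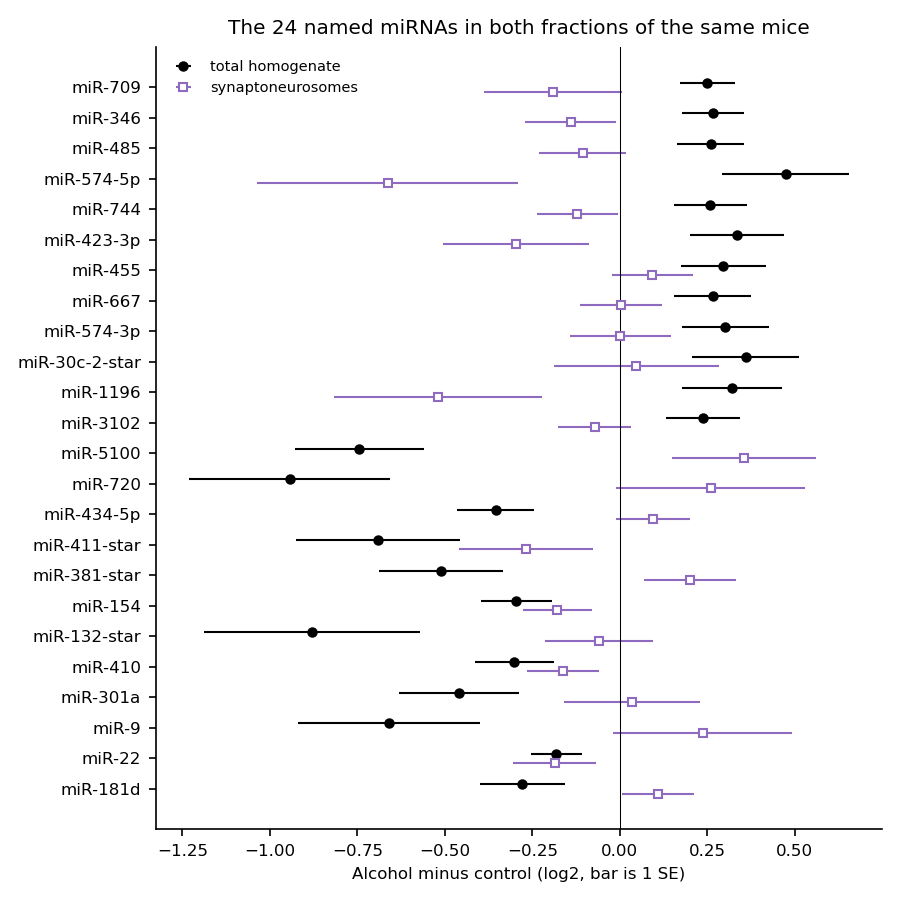
Alcohol minus control difference (log2, bars 1 SE) in TH (filled circles) and SN (open squares) of the same mice, for the 12 miRNAs of smallest p on each side in TH with a mean over 4. miR-22, miR-154, miR-410 and miR-411-star lie below 0 in both fractions, and miR-5100, miR-720 and miR-381-star lie below 0 in TH and above 0 in SN.

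Apart from miR-709, none of the 8 brightest miRNAs was at p under 0.05. After miR-124 (-0.002, SE 0.051) and miR-709, the next were let-7c (0.06), miR-26a (-0.06, or -0.02 without alcohol mice 1 and 8), let-7b (0.15, SE 0.088), miR-125b-5p (-0.13, SE 0.067), let-7d (0.10) and miR-103 (0.06, or 0.04 without those mice). Those other than miR-709 had p-values between 0.0678 and 0.968. miR-124 was the brightest probe set on 19 of the 20 arrays and miR-709 on 1, so both lie at the top of the normalized range. Whether that limits their differences was not tested.

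Lists of miRNAs with a shared family, cell type or role were described by counts and medians beside the 252 (13 higher, 15 lower, median 0.02). The let-7 family, which represses growth-promoting genes, had 8 members with a mean over 4, 0 at p under 0.05 and a median of 0.02. Neuron-enriched miRNAs had 20, with 1 lower (miR-9) and a median of 0.005, miR-139-3p being next at 0.21 (p = 0.0639). Dendritic and synaptic miRNAs had 18, with 1 higher (miR-485), 1 lower (miR-99a) and a median of -0.02. The miR-379 to miR-410 cluster, main strands of the same chromosome 12 region, had 23, with 2 higher, 3 lower and a median of -0.01.

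Glial and vascular lists held little. Oligodendrocyte and astrocyte miRNAs had 9 members, 0 at p under 0.05 and a median of -0.12, led by miR-146a (-0.33, SE 0.19, p = 0.103), an inflammation-linked miRNA, and miR-29a (-0.12, p = 0.118). Without alcohol mice 1 and 8 these were at -0.10 (p = 0.596) and -0.05 (p = 0.491). Vessel-wall miRNAs had 5, 0 at p under 0.05 and a median of -0.02, with miR-143 at 0.08 and miR-145 at 0.07. Blood cell miRNAs had 3, with 1 lower (miR-16) and a median of 0.14, and miR-486, made in red cells, stood at 0.19 (p = 0.0603). Of the 7 blood cell markers 4 averaged under 1 (miR-144, miR-142-3p, miR-142-5p and miR-223).

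Choroid plexus miRNAs had the lowest median of the 14 lists, -0.60, on 3 members with a mean over 4 and 0 of them at p under 0.05. miR-1298, described above with a difference of -1.43 (p = 0.0178), is one of its 13 dimmer members. miR-34c spanned 3.97 to 5.44 (median 4.98) in alcohol mice and 3.56 to 7.34 (median 5.23) in controls, and miR-204 2.87 to 4.71 (median 3.87) and 3.33 to 5.98 (median 4.63). Controls 2, 12 and 13 were the 3 highest mice for both. The differences were -0.67 (SE 0.38, p = 0.0898) and -0.60 (SE 0.32, p = 0.0715). miR-448-5p, the remaining member with a mean over 4, lay on the other side, at 0.06 (SE 0.19, limma p = 0.768). The list median is thus the value of miR-204 alone. A separate, shorter set of 8 choroid plexus markers did not include miR-1298. Of these, 3 averaged over 4, and miR-211 and miR-449a averaged under 1. The 8 summed to 6.36 to 6.84 in alcohol mice and 5.66 to 8.47 in controls. The part of choroid plexus tissue in these differences was not tested.

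Families were likewise close to 0. The miR-17/92 cluster and its paralogs, which promote proliferation, had 7 members, 0 at p under 0.05 and a median of 0.01. Of these, miR-106b differed by 0.16 and miR-93 by 0.12. The miR-29 and miR-30 families had 8, 0 at p under 0.05 and a median of -0.08, with miR-29b at -0.18. The miR-15/16 and miR-23/24/27 families had 10, 1 lower (miR-16) and a median of -0.02, with miR-15b at 0.31 (SE 0.19, p = 0.111). The miR-99/100 and miR-125 families had 6, 1 lower (miR-99a) and a median of -0.04.

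miRNAs named in earlier alcohol studies had 26 members with a mean over 4, 0 higher, 2 lower (miR-9 and miR-411) and a median of -0.05. Activity- and stress-responsive miRNAs had 12, 2 higher (miR-485 and miR-455), 0 lower and a median of -0.004. No member of any list passed the test.

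**Figure D5:**
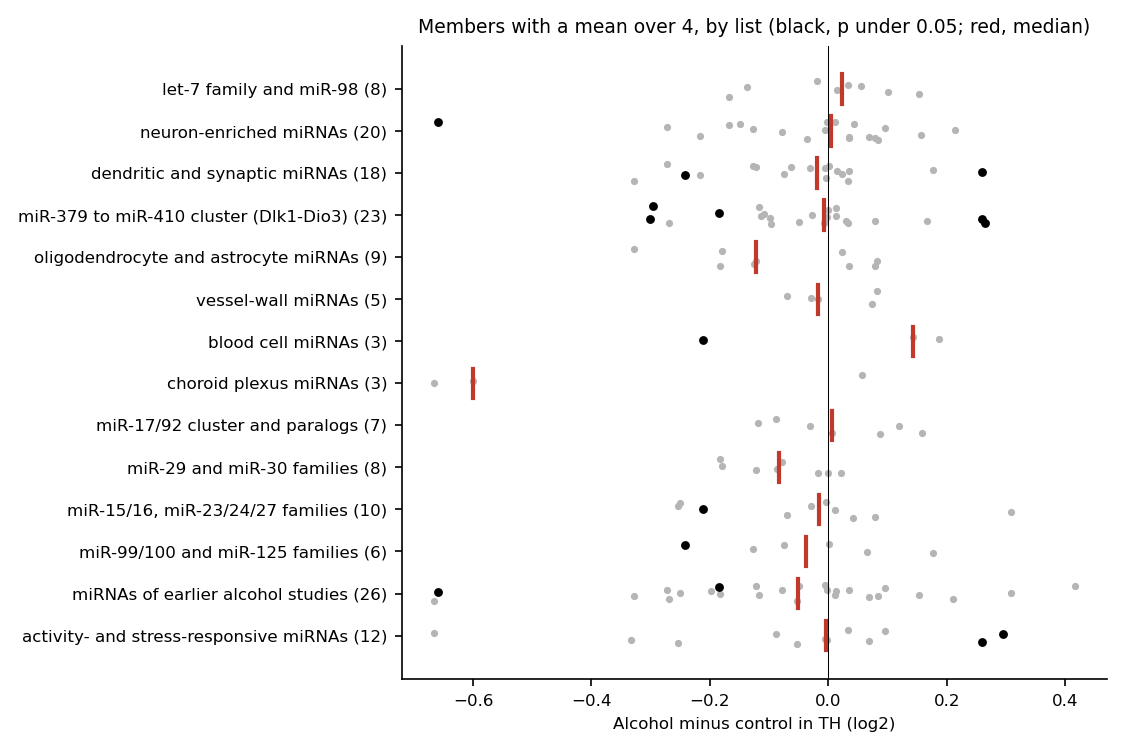
Alcohol minus control difference in TH (log2) of each miRNA with a mean over 4 in 14 lists (number of such members in brackets), with members at p under 0.05 in black and the list median in red. The choroid plexus median, over 3 members, is at -0.60, and the other 13 medians lie between -0.12 and 0.14.

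The genes that make and use miRNAs were read from TH messenger RNA arrays of 8 alcohol mice and 11 controls. The alcohol mice were those of the miRNA arrays, but the controls were only partly the same. They included the control that had no miRNA array and lacked the controls whose messenger RNA arrays are titled outliers. In this comparison 0 of 18318 probes passed (0%) and 571 (3.12%) were at p under 0.05. Of 43 listed pathway genes 22 had a probe in the authors' normalized table. None of the 22 passed, 0 were at p under 0.05, and the differences lay between -0.04 and 0.11 on the log2-like scale of that table. Levels in the table start at 7.95 with a median of 8.55, and a probe near the bottom can show little change: Tnrc6b averaged 7.98, and Dgcr8, Dicer1 and Eif2c2 8.27, 8.25 and 8.20. In nuclear processing Dgcr8 differed by 0.01 (SE 0.027) and Rnasen, the gene of Drosha, by -0.01 (SE 0.048). In cytoplasmic processing Dicer1 differed by -0.01 (SE 0.021) and Prkra, a Dicer partner, by 0.11 (SE 0.067). Among silencing genes Tnrc6b, an Argonaute partner, differed by -0.02 (SE 0.012) and Eif2c2, the gene of Argonaute 2, by 0.02 (SE 0.042). Adarb1, which edits RNA, differed by 0.09 (SE 0.075).

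Host genes are those in whose introns some miRNAs lie. Of 22 with a probe, 0 passed and 1 was at p under 0.05, Ctdsp2, a host of miR-26a, at 0.11 (SE 0.044, limma p = 0.0220). Pde2a, host of miR-139, differed by -0.03 (SE 0.063), beside 0.21 for miR-139-3p and 0.16 for miR-139-5p. Ptk2, host of miR-151, differed by 0.01 (SE 0.063) beside 0.17 for miR-151-3p. Both probes were bright, at 10.21 and 11.10. Trpm3, host of miR-204, averaged 8.00, near the lowest level of the table, so its difference of -0.02 is not set beside that of miR-204.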

How the data were processed

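Total homogenate RNA was measured on Affymetrix miRNA 3.0 arrays (8 alcohol, 12 control). The deposited miRNA values are on a log2 scale, made with RMA in oligo, with limma also named, per the submitters' processing notes, with versions not given in the sources used here. The normalized mRNA values deposited by the authors were made with lumi per those notes, on a scale close to log2. The authors' mRNA signal tables hold bead intensity and a detection p-value, per the file headers, and entered only an alternative. For the 1111 mouse probe sets, alcohol against control was fitted with limma 3.58.1 (lmFit, eBayes) in R 4.3.3, without covariates, and adjusted with Benjamini-Hochberg over all of them; 0.05 was the threshold. A mean over 4 across the 20 arrays marked probe sets taken as clear of the floor. A probe set just over this limit can pass it through its higher group alone. SN arrays, and SN minus TH within mice, were fitted likewise. The fit was tested on simulated data.

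Named were the 12 probe sets of smallest p on each side with a mean over 4, 4 on each side at or under 4, the 8 brightest, 2 members of each of 14 lists, and the pathway and host genes of smallest p; Dgcr8, Rnasen, Dicer1 and Eif2c2 are shown for their roles. Members and lists were chosen with earlier results of these data known. Array names give no arm for many miRNAs; miRBase naming history gave 11 of those with a mean over 4. G and C content came from RefSeq sequences (GRCm38.p6). The labels name no batch for the miRNA arrays. P-values measure the spread between these mice. Alternatives are given in the closing section. Sequences of miRNAs with no entry are not shown.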

Additional observations from a re-analysis of the deposited data

Results flagged for a closer look

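Among the 54 miRNAs named, 2 had an alcohol array far from the other 7, judged by the gap to the nearest array as a share of the group's range. Chance alone marks about 1 group in 20 this way, and the control group of 12 was too large for the rule. For miR-758 alcohol mouse 6 was highest, at 1.41 against 0.74 for the nearest, a gap of 0.641 of the range. For miR-411, from the chromosome 12 region, alcohol mouse 8 was lowest, at 6.17 against 6.52 for the nearest, a gap of 0.550 of the range. Mouse 8 is one of the pair whose arrays stood apart, and the miR-411 difference was -0.14 (limma p = 0.117) without mice 1 and 8.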

How the results depend on the processing

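The count of 0 probe sets passing in TH held under every normalization, weighting, variance and filtering choice tried, with smallest adjusted p-values of 0.112 to 0.371, and leaving out single mice gave 0 to 1. At an unadjusted p under 0.05 the counts with single mice left out ran from 66 to 92 of all probe sets and from 19 to 38 of those with a mean over 4, where the full data gave 77 and 28. Leaving out alcohol mice 1 and 8, chosen after seeing the data, gave 51 and 17 with a smallest adjusted p of 0.785, and a level limit of 6, also added later, gave 14 on fewer probe sets. Without controls 11 and 12 the counts were 103 and 42. Replicate numbers are of different mice; same-numbered TH arrays had correlations of deviations between -0.37 and 0.12 over 7 pairs, 1 of them above 0.1, and the replicate block gave 0 passing, 72 and 24. SN, SN minus TH, and pathway mRNAs had 0 passing throughout, also with single mice left out for SN minus TH and the pathway mRNAs (0 to 0). Of 1566 values of the 54 named miRNAs over 29 alternatives, 1557 kept sign and side of the threshold. miR-124 turned sign in 8: 0.0032 with array weights, 0.0045 with the block, 0.0048 without controls 11 and 12, 0.0019 without alcohol mice 1 and 8, and 4 of the 20 values with single mice left out, all of which lay between -0.015 and 0.012. miR-3113-star passed without control 13 (0.58). The causes were not tested. At levels of 1 to 4 the spread between arrays of a group was widest.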

Other observations

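miR-5100, miR-720 and miR-5097, 3 probe sets with lower means in alcohol mice, shared their highest arrays. Control 13 was the highest of the 20 TH arrays for each, at 6.16, 5.97 and 5.74, and control 5 the second highest, at 5.67, 5.50 and 5.33. They were chosen after their values were seen, and their dependence on one source of RNA was not tested.

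TH and SN arrays of the same mouse resembled each other little after the group means were removed. The correlation of deviations had a median of 0.134 over 20 mice, and in 1 of 20 a TH array correlated best with its own mouse's SN array.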
